A study of Mus musculus with 10 samples.

Results

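The genes described here mark macrophages and other leukocytes. The list held 43 myeloid and pan-leukocyte genes, and a gene was included when at least 1 probe set of the array was annotated to it and to no other gene. Probe sets met this rule for 34 of the 43, through 49 probe sets, out of 8251 genes named in this way on the array. The other 9 were skipped (Lyn, Plek, Alox5ap, Clec10a, Clec4n, Gpnmb, Ms4a7, Cd84 and Tlr2). Total RNA of the gastrocnemius, the large calf muscle, of male mice aged 16 weeks was hybridised to 10 arrays. Normal mice gave the 5 control arrays, and mdx mice gave the other 5. The mdx mouse carries a mutation in the gene for dystrophin and its muscle goes through rounds of fibre loss and regeneration, and the series concerns transcripts of regenerated mdx muscle. The labels name no treatment, no strain for the controls and no batch. They do not say whether each array stands for a different animal, so the p-values below reflect only how these 10 samples vary, part of which may be technical.

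Macrophages and other white blood cells enter muscle where fibres break down, clear debris through phagocytosis and lysosomal digestion, and release signals that act on regenerating fibres. Most listed genes serve these tasks, as receptors for growth factors and microbial products, as lysosomal and granule proteins, as subunits of the phagocyte NADPH oxidase, which makes superoxide, or as signalling and cytoskeletal proteins of blood cells. Spi1 encodes PU.1, a transcription factor needed for the formation of macrophages. A whole muscle piece was measured, so more cells of a type and more RNA per cell cannot be told apart.

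The values are intensities per probe set as deposited, and how background was handled is not given. Apart from control probe sets, 27483 values lay below 0, and a value near or below 0 was read as no measurable signal. Some lay far below 0, such as Coro1a, with a mean of -2454 in control and -942 in mdx. Values are given on each array in the order of replicates 1 to 5. A noise level of 373, the root mean square of all values below 0, was added before the log2 was taken, and every log2 change is mdx minus control on that scale, which understates the change of a dim gene. Where all 5 control arrays lay below the noise level and the mdx arrays were brighter, the rise is also given as at least the mdx geometric mean over that level. A gene was tested where its probe set exceeded 134 on at least 5 arrays of any group, and a call is an adjusted p below 0.05 in limma. Genes with more than 1 probe set are represented by the brightest.

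Most of the myeloid genes were higher in mdx muscle and none was called lower. Of the 34, 26 passed the filter on low values, and of these 21 were called higher, 0 lower and 5 did not pass the test (limma). Over all 5764 tested genes, 16.1% were called higher and 18.6% lower. Of the 26, 3 genes (Cd48, Ptprc and Pld4) had no control array above the filter level and 6 had fewer than 2. Any gene with fewer than 5 control arrays above that level needed its mdx values to pass the filter. This also holds for Ifi30 and Lst1 (2 control arrays), Ly86 and Ptpn6 (3), and Mrc1, Cd68, Laptm5, Fgr and Spi1 (4). Which genes were tested thus depends in part on the mdx values. Without any filter, 23 of the 34 were called higher and 0 lower, against 11.4% of 8251 genes called higher, and Clec4d and Aif1 joined the calls. On 24 of the 34, every mdx array read above every control array, which held for 10.5% of the 8251 genes, and no member showed the reverse. The 24 include Csf2rb, which was below 0 on 9 arrays. The mean was higher in mdx for 31 of the 34.

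The median log2 change of the 26 tested genes was 1.17, beside -0.04 for all tested genes. That median depends on the noise level added, and was 1.85 with a level of 157 taken from the median of the values below 0 and 0.73 with 2 times the level used. With the 10 genes that had a bound set at that bound, it was 0.93. The 5 genes that did not pass were Csf2ra, Cx3cr1, Fgr, Vav1 and Rac2. The 8 too dim to be tested were Csf2rb, Clec4d, Cd44, Cybb, Ncf1, Hcls1, Aif1 and Coro1a. By role, 8 of 10 tested surface receptors and lectins were called higher, 6 of 6 lysosomal and granule genes, 2 of 2 oxidase subunits, 3 of 6 signalling genes, 1 of 1 actin-binding gene and 1 of 1 transcription factor.

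**Figure D1:**
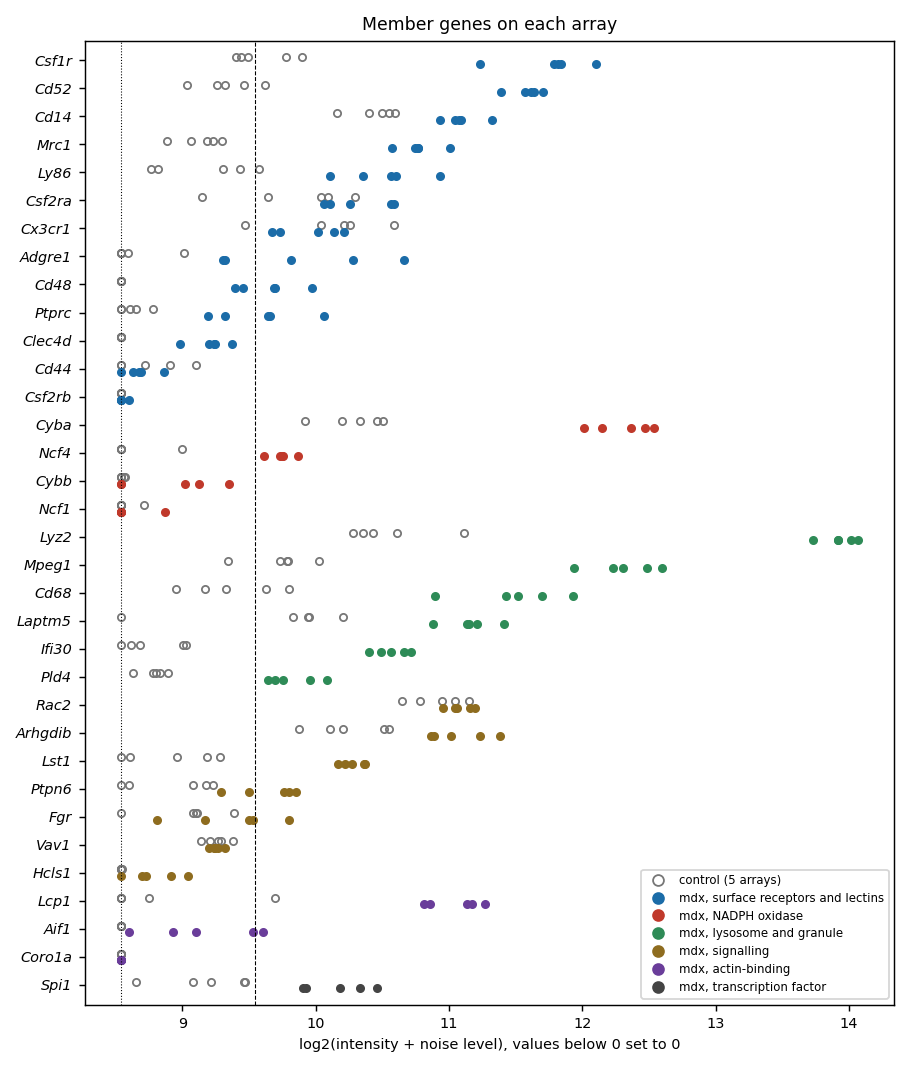
Each point is the value of 1 array for the 34 genes with a probe set, as log2 of the intensity plus the noise level, with open circles for the 5 control and filled circles for the 5 mdx arrays, coloured by role. The dotted line marks an intensity of 0 and the dashed line an intensity equal to the noise level of 373; all control arrays lay below the dashed line for 20 genes, and the groups did not overlap, with mdx higher, for 24.

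Spi1, the PU.1 gene, was higher on every mdx array. It read 221, 334, 337, 30.3 and 167 on the control arrays and 602, 918, 587, 787 and 1036 on the mdx arrays. All control values lay below the noise level and all mdx values above it, and the rise was at least 2.05-fold (log2 change 0.98, SE 0.17, limma adjusted p = 5.91e-04). Among other transcription factors of blood cells, 3 of 7 tested were called higher and none lower. Runx1, a factor of blood stem and progenitor cells that muscle fibres also make after denervation, rose from 5.55 ± 52.3 to 831 ± 195 (SD, n = 5 each; at least 2.18-fold, limma adjusted p = 6.49e-07). Cebpa, a factor of myeloid differentiation and of fat cells, rose by 1.03 and Gfi1, a repressor of blood progenitors, by 0.70 on the log2 scale. For Gfi1 the groups overlapped, and all control arrays and 3 of the 5 mdx arrays lay below the noise level (limma adjusted p = 0.0181). Irf8, which directs monocyte differentiation, changed by 0.25 and did not pass (limma adjusted p = 0.181).

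The promoters of genes that rose together with Spi1 are shown because PU.1 is known to bind purine-rich sites at many myeloid genes. They are the 250 bases before the annotated start in RefSeq (GRCm38.p6) for Lyz2, at chr10:117282273-117282522 on the minus strand, for Mpeg1, at chr19:12460520-12460769 on the plus strand, for 1 of the 2 listed starts of Lcp1, at chr14:75130873-75131122 on the plus strand, and for Cd68, at chr11:69666171-69666420 on the minus strand. Capitals mark GAGGAA or GGAAGT, which are parts of the PU.1 site, on either strand.
Lyz2: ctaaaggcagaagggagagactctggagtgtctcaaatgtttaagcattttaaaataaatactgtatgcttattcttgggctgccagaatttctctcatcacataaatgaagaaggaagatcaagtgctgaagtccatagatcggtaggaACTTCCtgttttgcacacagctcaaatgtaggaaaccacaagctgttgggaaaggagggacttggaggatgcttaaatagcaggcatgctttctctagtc
Mpeg1: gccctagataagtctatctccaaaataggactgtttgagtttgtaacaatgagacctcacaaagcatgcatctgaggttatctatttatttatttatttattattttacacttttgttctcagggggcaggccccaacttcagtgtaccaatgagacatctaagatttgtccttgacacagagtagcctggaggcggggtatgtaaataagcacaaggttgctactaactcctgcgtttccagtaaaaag
Lcp1: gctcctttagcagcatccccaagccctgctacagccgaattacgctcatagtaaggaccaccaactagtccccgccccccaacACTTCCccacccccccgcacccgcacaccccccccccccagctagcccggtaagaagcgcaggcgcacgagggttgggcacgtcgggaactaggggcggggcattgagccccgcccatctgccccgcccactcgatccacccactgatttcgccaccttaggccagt
Cd68: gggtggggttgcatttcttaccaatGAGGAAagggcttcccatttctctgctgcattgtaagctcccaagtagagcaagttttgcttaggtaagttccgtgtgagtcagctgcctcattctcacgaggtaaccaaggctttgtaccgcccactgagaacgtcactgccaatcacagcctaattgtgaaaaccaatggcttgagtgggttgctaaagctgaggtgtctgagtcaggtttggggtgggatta
In Lyz2 the match was GGAAGT on the opposite strand, beginning at base -100 from the start, and in Lcp1 it was the same letters on the opposite strand at -167. The other listed start of Lcp1, whose 250 bases before it are chr14:75136175-75136424, held neither pattern in its window. In Cd68 GAGGAA lay at -225, and 2 further matches fell within the 50 bases after the start, which are not printed. The printed window of Mpeg1 held neither. Its change was the second in size after that of Lyz2. Cyba and Ifi30 came next after Cd68 in size of change among genes with a listed promoter, and their windows are not printed. Neither held a match in the 250 bases before the start. Ifi30 held GAGGAA on the opposite strand at base 20 after its start.

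In 300-base windows that add those 50 bases, 25 of the 34 genes matched the RefSeq table, with 30 promoters. GAGGAA was found in 46.7% of these promoters and in 28.3% of all 32851 promoters of the table, and GGAAGT in 50% and 23.8%. At least 1 of them lay in 21 of the 30 (70%, against 43.4% of all), and both can overlap where they share letters. The C/EBP pattern TTGCNNAA was found in 10% against 10.8%, the AP-1 pattern TGANTCA in 10% against 7.81%, and TATAAA in 13.3% against 13.6%. The 25 genes include some that were not called higher. A match to GAGGAA or GGAAGT lay in Csf2ra, Fgr and Vav1, which did not pass the test. Cd44, Cybb, Hcls1, Aif1 and Clec4d, too dim to be tested, also held one. Genes without a match were Mpeg1, Cyba and Ly86, all called higher, Cx3cr1, which did not pass, and Coro1a and Ncf1, too dim to be tested. The shares thus describe the list as a whole and not only the genes that rose. These letter matches are a description of the windows and not binding sites, and the part of PU.1 in the rises was not tested.

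Of the 10 tested surface receptors and lectins, 8 were called higher in mdx. Csf1r, the receptor for the growth factor on which most macrophages depend, read 347, 581, 506, 305 and 321 on the control arrays and 2030.0, 3239.7, 3288, 4023 and 3169.9 on the mdx arrays. The lowest mdx array was above the highest control array, with a difference of 2.15 in log2 (SE 0.15, limma adjusted p = 5.27e-07). A dimmer probe set of Csf1r, at 270.4 ± 67.5 in control and 279 ± 96.3 in mdx (SD, n = 5 each), changed by 0.01 (limma adjusted p = 0.944). The probe sets of Csf1r disagree, and their mean on the log2 scale changed by 1.08.

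Mrc1, the mannose receptor CD206 of tissue macrophages, read 209, 255, 100, 162 and 228 in control and 1684, 1368, 1345, 1372 and 1154 in mdx. All control values lay below the noise level, and the rise was at least 3.68-fold (log2 change 1.64, limma adjusted p = 2.28e-07). Adgre1, the F4/80 antigen used to stain mouse macrophages, was not above the noise level on any control array and ranged from 261 to 1248 on the mdx arrays, the widest spread among the called genes (log2 change 1.23, limma adjusted p = 1.59e-03). Its rise was at least 1.40-fold, and 2 of the 5 mdx arrays also lay below the noise level. A second probe set of Adgre1 was below the noise level on all 10 arrays.

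Cd52, a short glycoprotein of lymphocytes and monocytes, read 416, 267, 242, 151 and 332 in control and 2305, 2969.8, 2673, 2758 and 2822 in mdx. Its mdx arrays lay close together, with a coefficient of variation of 9.20%, and the log2 change was 2.24 (SE 0.11, limma adjusted p = 2.50e-08). Cd48, a ligand of the signalling lymphocyte activation family, was below 0 in every control sample and at 434 ± 131 in mdx (SD, n = 5; at least 1.12-fold, log2 change 1.10, limma adjusted p = 7.53e-06). Ptprc, the CD45 phosphatase found on nearly all white blood cells, went from 20.9 ± 29.1 to 407 ± 189, a log2 change of 0.95 (limma adjusted p = 2.84e-04). The geometric mean of its mdx arrays was 1.0002 times the noise level, so the bound shows almost no fold for it. Of its other probe sets, 1 also had no overlap between the groups, at -60.8 ± 60.2 in control and 179 ± 99.4 in mdx, and 1 stayed near 0 in both, and neither was bright enough to be tested.

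Ly86 (MD-1), a partner of the Toll-like receptor relative RP105, read 390.5, 317, 79.2, 61.3 and 259 in control and 939.5, 731, 1182, 1586 and 1142 in mdx. No arrays overlapped, and the log2 change was 1.34 (SE 0.19, limma adjusted p = 1.40e-04). Cd14, the co-receptor for bacterial lipopolysaccharide, was already above the noise level on every control array. It rose from 1026 ± 159 to 1821 ± 222 (SD, n = 5 each), a ratio of 1.78 (log2 change 0.65, limma adjusted p = 3.37e-04), the smallest change among the 21 called.

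Among the tested surface receptors, Cx3cr1 and Csf2ra did not pass. Cx3cr1, the fractalkine receptor of patrolling monocytes and many resident macrophages, read 682, 1165, 337, 854 and 813 in control and 445, 480, 665, 754 and 814 in mdx, with wide overlap (log2 change -0.16, SE 0.19, limma adjusted p = 0.554). Csf2ra, the specific chain of the granulocyte-macrophage growth factor receptor, read 882, 679, 193, 425 and 719 in control and 854, 696, 1163, 1139 and 730.2 in mdx (log2 change 0.47, SE 0.20, limma adjusted p = 0.0888). Without control replicate 1, the highest control array, Csf2ra passed at 0.59 (limma adjusted p = 0.0397). Csf2rb, the shared chain of that receptor, was below 0 on 9 of the 10 arrays and had no usable level, while Csf2rb2, its close relative that serves interleukin 3 alone, went from 87.3 ± 26.2 to 342 ± 74.3 (log2 change 0.63, limma adjusted p = 2.44e-04). For Csf2rb2, all control arrays and 3 of the 5 mdx arrays lay below the noise level. A probe set annotated to both relatives read -100 ± 108 in control and 115 ± 104 in mdx, with overlap.

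Clec4d, a lectin that binds mycobacterial glycolipid, and Cd44, the hyaluronan receptor, were below the noise level on all 10 arrays. Clec4d was below 0 on every control array and between 133 and 289 on the mdx arrays, and without the filter it passed at 0.66 (limma adjusted p = 8.41e-05). Cd44 read 49.6 ± 97.8 in control and 31.5 ± 44.9 in mdx on its brightest probe set, and its other probe sets were dimmer still.

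The 2 largest changes were of lysosomal and granule genes. Lyz2, lysozyme M of macrophages and neutrophils, read 1843, 936, 1007, 873 and 1188 on the control arrays and 13203, 15115, 16772, 15107 and 16167 on the mdx arrays. The mean was 13.1 times that of control, and the change after the noise level was added was 3.37 in log2 (SE 0.14, limma adjusted p = 6.87e-09), and the mdx arrays differed among themselves by a coefficient of variation of only 8.90%. Lyz1, a near-identical lysozyme gene, can share signal with this probe set, so the split between these relatives is uncertain.

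Mpeg1, perforin-2, a pore-forming protein of phagocytes, read 516, 509, 669, 277 and 479 in control and 3557, 4678, 5363, 5843 and 4429.7 in mdx (log2 change 2.57, SE 0.14, limma adjusted p = 5.72e-08). The lowest mdx array was above all 5 control arrays by a wide margin. Cd68, a lysosomal membrane protein used as a macrophage stain, read 516, 202, 420, 123 and 268 in control and 1531, 2945, 2387, 3535 and 2562 in mdx (log2 change 2.12, SE 0.20, limma adjusted p = 4.77e-06). It was among the most variable on the mdx arrays, where the highest value was 2.31 times the lowest.

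Ifi30 (GILT), a reductase that opens disulphide bonds of proteins taken up for antigen presentation, read 140.3, 148, 18.7, 37.7 and -2.07 in control and 979.9, 1253, 1064, 1312 and 1139 in mdx. All control values were below the noise level, and the rise was at least 3.06-fold (log2 change 1.79, limma adjusted p = 2.53e-07). Laptm5, a lysosomal membrane protein of blood cells, read 617, 808, -49.3, 609 and 536 in control and 1509, 1898, 1996, 2350 and 1879 in mdx (log2 change 1.46, SE 0.26, limma adjusted p = 7.61e-04). Control replicate 3 alone was below 0. A second probe set of Laptm5 rose by 2.12 (at least 4.16-fold, limma adjusted p = 3.33e-06), from -129 ± 329.6 to 1586 ± 370.2. Pld4, a lysosomal nuclease, went from 70.0 ± 29.2 to 541 ± 121, at least 1.42-fold (limma adjusted p = 9.00e-06).

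The second probe sets of Lyz2, Mpeg1, Cd68 and Pld4 lay below the noise level on all 10 arrays and were not tested. Over all 34 genes, 12 had several probe sets, and of the 15 beyond the brightest 12 were too dim to test, 2 were called higher and 1, that of Csf1r, did not pass.

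**Figure D2:**
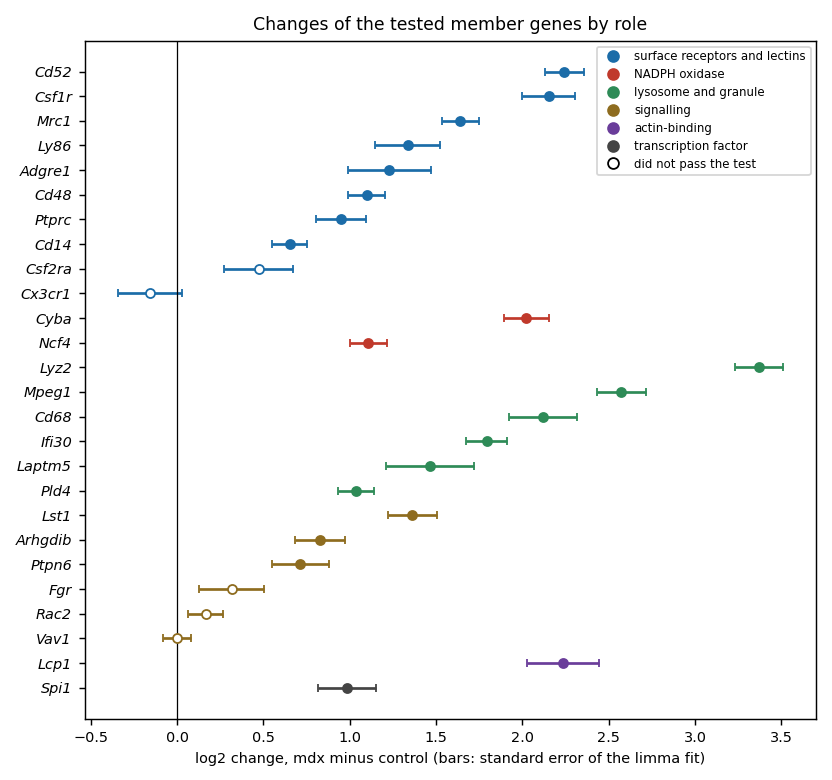
Log2 change of each of the 26 tested genes, mdx minus control, with bars of 1 standard error of the limma fit, grouped by role. Filled points passed the test and open points did not; changes ran from -0.16 (Cx3cr1) to 3.37 (Lyz2), and the signalling genes held 3 of the 5 open points.

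The subunits of the phagocyte NADPH oxidase differed in what the arrays could measure. Cyba encodes p22phox, the small membrane chain, which also pairs with the related enzymes of other cells. It read 917, 804, 1079, 594 and 1036 in control and 3763, 5562, 4158, 4900.0 and 5297 in mdx, 5.34 times as high on average (log2 change 2.02, SE 0.13, limma adjusted p = 2.06e-07). The groups were far apart, and a second probe set of Cyba agreed in size, at 1.91 (limma adjusted p = 1.99e-08). Ncf4, p40phox, a cytosolic subunit that binds phosphoinositides, read -96.3, -199, 138, -18.6 and -148 in control and 409, 560.3, 485, 478 and 490.3 in mdx. It had no signal above noise in control and stood just above the noise level on every mdx array, at least 1.29-fold higher (log2 change 1.11, limma adjusted p = 6.21e-06).

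Cybb, gp91phox, the catalytic chain that pairs with p22phox, read -206, 6.92, -111, -153 and 5.99 in control and -92.5, -24.8, 146, 184 and 279.6 in mdx. Every value was below the noise level and the groups overlapped, so no level could be set for the catalytic chain. Ncf1, p47phox, the organiser subunit, read -231, -369.8, -135, 45.6 and -165 in control and -112, -251, -79.0, 95.9 and -197 in mdx. It too was below the noise level on all 10 arrays. The oxidase calls rest on 2 of the 4 listed subunits, and Cybb and Ncf1 were not measurable here, which is not evidence that they were absent.

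Of Rac1, Rap1a and Cyb5r4, the 3 of 7 listed oxidase and redox partners with a probe set, none was called higher as deposited, but 2 were called higher with arrays scaled to their hybridization controls and all 3 lower with equal medians. Rap1a, a small GTPase found with the oxidase membrane chains, was lower, at 776 ± 42.1 against 1084 ± 109 (log2 change -0.34, limma adjusted p = 5.54e-03), though scaled to the hybridization controls it changed by 0.11 (limma adjusted p = 0.467). Rac1, the widely expressed relative of Rac2, changed by -0.14 (limma adjusted p = 0.227).

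The signalling genes were split, with 3 of 6 tested called higher and a median log2 change of 0.51 over the 6. Lst1, a small leukocyte protein encoded in the major histocompatibility region, read 17.1, 250.01, 208, -5.91 and 125 in control and 823, 952, 863, 941 and 776 in mdx. All control arrays were below noise, and it rose at least 2.33-fold (log2 change 1.36, limma adjusted p = 1.33e-05). Arhgdib read 807, 565, 1129, 731 and 1087 in control and 1490.3, 1701, 1518, 2032 and 2297 in mdx, 2.09 times as high (log2 change 0.83, SE 0.15, limma adjusted p = 7.98e-04). Ptpn6 (SHP-1), a phosphatase that restrains receptor signalling in blood cells, read 169, 15.3, 208, -44.7 and 229 in control and 498, 351, 549.9, 519 and 254 in mdx. Its groups were separate by a narrow gap and 2 mdx arrays were below the noise level, with a rise of at least 1.12-fold and a log2 change of 0.71 (limma adjusted p = 4.55e-03).

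The other 3 tested signalling genes did not pass, and their groups overlapped on the probe sets tested. Rac2, the blood-cell Rac that activates the oxidase, was well above noise on every array at 1574 ± 266 in control and 1798 ± 146 in mdx (log2 change 0.17, SE 0.10, limma adjusted p = 0.235). Fgr, a Src family kinase of myeloid cells, went from 159 ± 117 to 303 ± 169 (log2 change 0.32, limma adjusted p = 0.229). Vav1, a guanine nucleotide exchange factor of blood cells, read 239.5 ± 38.9 and 238.6 ± 18.8, below the noise level on all arrays (limma adjusted p = 0.998). Its other probe sets were too dim to test. One of them had no overlap, at -255 ± 45.6 in control and -27.0 ± 98.0 in mdx. The other read -234 ± 208 and 14.6 ± 161, with overlap. Hcls1, a cortactin relative of blood cells, was too dim to test, at -110.2 ± 73.9 in control and 65.0 ± 71.3 in mdx.

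Of the actin-binding genes, Lcp1, L-plastin, which bundles actin filaments in leukocytes, read 456, -3.61, -61.3, -84.6 and 56.6 in control and 1429.9, 1871, 1487, 1934 and 2098 in mdx (log2 change 2.24, SE 0.21, limma adjusted p = 4.49e-06). Only control replicate 1 was above the noise level in its group, and without it the change was 2.46 (limma adjusted p = 6.91e-08). Its second probe set was below the noise level on all arrays. Aif1 (Iba1), a calcium-binding marker of macrophages and microglia, was below 0 on every control array and between 14.0 and 406 in mdx, and it passed at 0.61 without the filter (limma adjusted p = 0.0421). Coro1a, coronin 1A of leukocytes, read below 0 on all 10 arrays, so its level is unknown.

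The 5 mdx arrays differed in how far these genes rose. Their summed intensity over the 34 genes was 8080.4 to 13032 in control and 44016 to 59129 in mdx. For the 21 called genes, the median rise above the control mean was 1.18 on the log2 scale on mdx replicate 1 and 1.72 on mdx replicate 4, with the other 3 arrays at 1.39 to 1.52. Replicate 1 was the lowest of its group for 13 of the 21 genes. The mean of all probe sets after trimming was 723 on that array and about 801 on the other 9, and with equal trimmed means it was the lowest for 7. Replicate 4 was the highest for 8, before and after that scaling. All 21 were called higher with either array left out. In control, replicate 4 was the lowest for 14 of the 21.

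**Figure D3:**
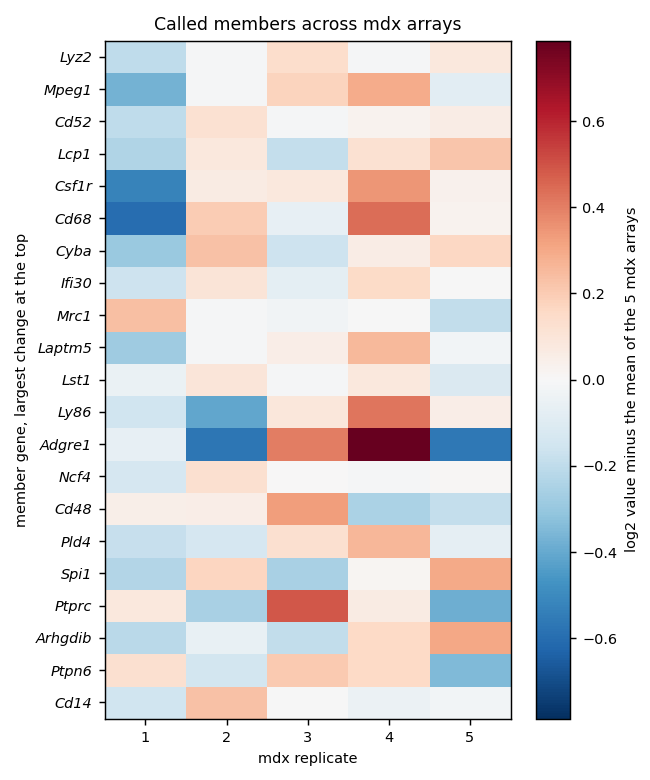
Each cell is the log2 value of 1 called gene (rows) on 1 mdx array (columns) minus that gene's mean over the 5 mdx arrays, blue below and red above it. Replicate 1 is below the mean for most genes but not for Mrc1, Cd48, Ptprc or Ptpn6, and Adgre1 shows the widest spread, from 261 to 1248 in intensity.

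Lists of macrophage activation, neighbouring pathways and other leukocytes were set beside these genes. Among markers of alternatively activated macrophages, 5 of 5 tested were called higher, including Mrc1. Stab1, a scavenger receptor, rose by 1.41 (limma adjusted p = 2.56e-07), Folr2, a folate receptor of resident macrophages, by 1.08 (limma adjusted p = 2.24e-05), Chil3, a chitinase-like protein, by 0.68 (at least 1.26-fold) and Msr1, a scavenger receptor, by 0.44. The summed intensity of all 8 genes of that list with a probe set, tested or not, was 1835 to 2559 in control and 6517 to 7307 in mdx. Arg1, Il10 and Pparg of that list were below the noise level on all arrays. All 11 genes of inflammatory activation, Nos2, Tnf, Il1b, Il6 and Ptgs2 among them, were below the noise level on all 10 arrays. Only 2 of these, Cd80 and Cd86, were bright enough to test, neither passed, and the state of that programme cannot be read here.

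In the list of colony-stimulating factors and other receptors, 1 of 5 tested genes was called higher and 1 lower. Csf1, a ligand of Csf1r, changed by -0.04 (limma adjusted p = 0.762). Csf2rb2 was the gene called higher, and Flt3, a progenitor and dendritic cell receptor, was lower, by -0.51 (limma adjusted p = 0.0273). Of 5 Toll pathway genes, Tlr6 (0.39) and Myd88 (0.47) were called higher, both below the noise level on all arrays. Among kinases and adaptors related to Lyn and Vav1, 4 of 10 were higher. Syk, the kinase behind many activating receptors, went from 788 ± 99.9 to 1301 ± 156 (log2 change 0.53, limma adjusted p = 7.90e-04), and Blnk rose by 0.72. Lcp2 rose by 0.48 and Dock2 by 0.38, both below the noise level on all arrays. Neither of 2 tested leukotriene synthesis genes, Lta4h and Ltc4s, passed.

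Markers of the other cells a muscle piece can hold moved as follows, and their part in the rises above was not tested. Sums cover every gene of a list with a probe set, tested or not, with values below 0 set to 0. No neutrophil gene of 8 tested passed as deposited, 9 of 14 were below noise on all arrays (Ly6g, S100a9, Mpo and Cxcr2 among them), and the summed level was 3170 to 4118 in control and 2853 to 4867 in mdx. Of 3 tested T cell genes, Il7r was higher (0.47) and Cd4 (-0.89) and Cd28 (-0.47) lower. Of 12 with a probe set, 11 were below noise on all arrays, among them Il7r, Cd28 and the defining Cd3d, Cd3e and Cd3g. The summed level was 887 to 1895 in control and 559.8 to 840.4 in mdx, and Cd4 alone read 1056 on control replicate 1. Of 5 tested B cell genes, Ms4a1 was lower (-0.47), and the sum was 2520.2 to 3665 in control and 1978 to 2612 in mdx. None of 5 natural killer genes passed as deposited, with sums of 862 to 1952 and 1205 to 2112. Mast cell genes rose in 2 of 3 tested, Cma1 by 1.35 (at least 3.53-fold, limma adjusted p = 3.97e-07) and Cpa3 by 0.56, with sums of 482 to 1157 and 1855 to 2273. Dendritic cell genes were higher for Itgax (0.80, at least 1.86-fold), which macrophages also express, and Batf3 (0.30) and lower for Flt3, with sums of 2116 to 2580.1 and 2453 to 3643. Among platelet genes Gp9 was lower (-0.98), with sums of 928 to 1249 and 55.2 to 765. The 1 tested eosinophil gene, Ccr3, did not pass, with sums of 165 to 571 and 184 to 470.3.

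**Figure D4:**
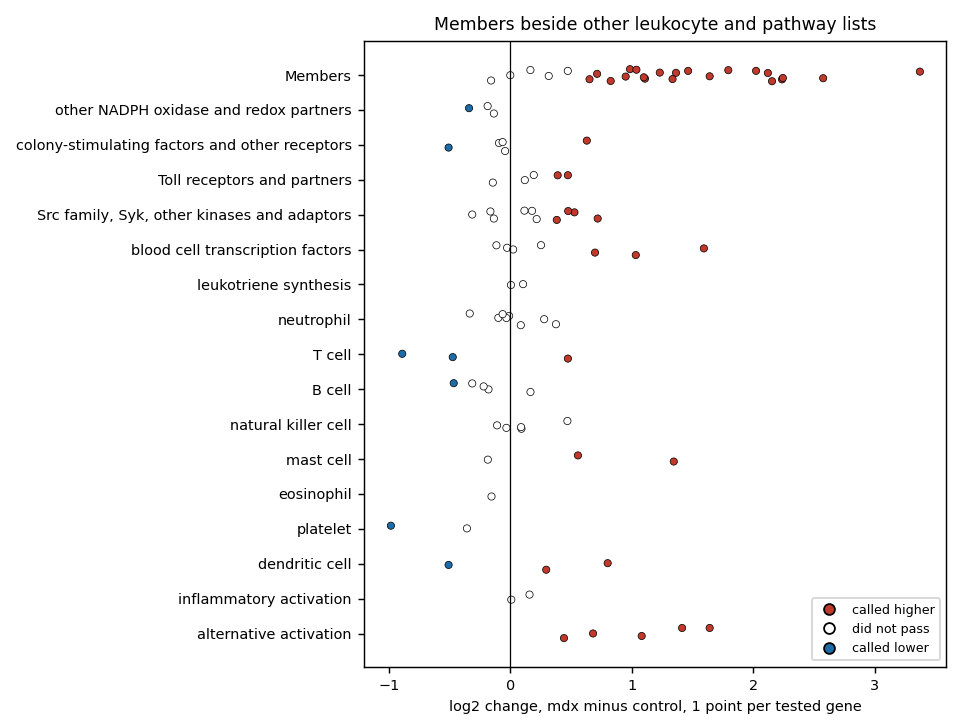
Each point is the log2 change of 1 tested gene, mdx minus control, in the member list (top row) and in the other leukocyte and pathway lists, red where called higher, blue where called lower and white where the test was not passed; vertical offsets within a row carry no meaning. Member changes reached 3.37, and the largest in the other lists were Mrc1 (1.64, also a member) and Runx1 (1.59).

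The arrays themselves differed between the groups in some measures that do not depend on these genes. Values below 0 made up 23.4% of those in control and 20.8% in mdx (exact permutation p = 0.00794, two-sided, the smallest p that 5 against 5 can give). The 3'/5' ratio of the actin control, a measure of RNA quality, was 1.13 and 1.02 (exact permutation p = 0.0159), and that of Gapdh 0.735 and 0.732 (exact permutation p = 0.921). Hybridization controls, which are normally added in equal amounts, read 13.5 and 12.8 on the log2 scale (exact permutation p = 0.00794). Of 12 fast muscle fibre genes, all 12 were tested, 8 were lower and none higher, with a median log2 change of -0.55. The part of these differences in the changes above was not tested. All probe sets split into 1202 higher and 1352 lower calls as deposited, and 979 and 2148 with equal medians. Scaled to the hybridization controls, 3563 of 7629 tested were called higher and 127 lower. That last scaling moved the median of all genes to 0.36 and that of the tested members to 1.32. Under it 25 of 27 members tested were called higher, with Csf2ra, Fgr and Rac2 now passing and Clec4d bright enough to be tested, while Rap1a, Flt3, Cd28, Ms4a1 and all 8 fast fibre genes were no longer called. Other lists gained calls under it, as did all probe sets, of which 3563 of 7629 were called higher. Above that share were 4 of 5 Toll genes, 10 of 12 kinases and adaptors and 6 of 7 blood cell transcription factors. So were 2 of 3 leukotriene and 3 of 4 dendritic cell genes. Below it were 2 of 8 neutrophil, 2 of 5 natural killer, 1 of 5 B cell and 1 of 3 inflammatory activation genes. With quantile normalization 2 fast fibre genes were called lower, and with equal medians Msr1 and Batf3 did not pass and Myd88 was too dim to test.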

How the data were processed

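The values used are the probe set intensities that the authors deposited, on a linear scale and with no log taken. The software, background subtraction and scaling behind them are not given in the sources used here. There were 12488 probe sets, 66 of them controls. Per the array platform's annotation, 10833 named 1 gene, 396 several and 1193 none. Looked up by gene number in the RefSeq table of GRCm38.p6, 0 symbols changed.

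Values below 0 were set to 0, the noise level of 373 was added and log2 was taken. A probe set above 134, the 40th percentile, on at least 5 of 10 arrays was tested, which left 7612. limma 3.58.1 (R 4.3.3) compared mdx with control by lmFit and eBayes with trended variance in two-sided tests, and p-values were adjusted over all 7612 by Benjamini-Hochberg. Precision is limited by having 5 arrays a group. The code was tested on simulated data.

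The members and the 17 lists beside them were chosen with earlier results of these data known, and give no independent support. Values on all arrays are given for the called genes with the 12 largest changes, genes called lower, oxidase subunits, Spi1 and the 3 signalling genes of smallest p; Cx3cr1 and Csf2ra were chosen after their values were seen. In other lists, up to 4 genes of smallest p were named; further names were chosen after their values were seen. Alternatives covered the noise level, filter, scaling, variance model, probe set rule, replicate block and each array left out.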

Additional observations from a re-analysis of the deposited data

Results flagged for a closer look

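A probe set annotated to both Lyz1 and Lyz2, and for that reason outside the comparisons, read 19865 ± 3887 in mdx against 499 ± 326 in control (SD, n = 5 each), with the lowest mdx array at 13139 and the highest control array at 1023. Its log2 change of 4.58 (limma adjusted p = 2.09e-08) cannot be divided between these lysozyme genes.

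Single arrays stood apart from their group in 2 of 68 groups of 5 examined, by the gap to the nearest array over the group's range, and chance gives such a gap in about 1 in 20 groups. Lcp1 read 456 on control replicate 1 and -84.6 to 56.6 on the other control arrays. Coro1a read -970 on control replicate 1 and -3008 to -2583 on the other control arrays, all below 0, so that no level can be given.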

How the results depend on the processing

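All 21 genes called higher were called higher under each of the 23 alternatives in which they were tested, 10 of which left out 1 array. The exception to testing was the filter at the 60th percentile, which removed Adgre1, Cd48, Ptprc, Ncf4, Pld4 and Ptpn6, so that 15 of 18 genes were called higher, 5 of them surface receptors and 1 an oxidase subunit, with a median log2 change of 1.55. The median was 1.72 with a noise level 0.5 times as large, 1.85 with the level of 157 (chosen after seeing the data), 0.73 with a level 2 times as large and 0.97 without a filter. Scaled to the hybridization controls, 5 signalling genes were called higher, Cx3cr1 changed by 0.24 (limma adjusted p = 0.292) and Vav1 by 0.25. Vav1, near 0, turned to 0.0093 with equal trimmed means, 0.00063 with the smaller noise level and 0.00098 with the level of 157, and ranged from -0.030 to 0.031 with 1 array left out. The replicate number as a block left 21 genes called higher and changed no member's call, and all probe sets called went from 2554 to 2238. Same-numbered arrays did not deviate together (correlations of deviations across probe sets -0.16 to 0.04), so the numbers were not taken as pairs. Of 590 values of single genes, 575 kept direction and side of the threshold, 11 reversed (Vav1 and Cx3cr1) and 4 gained a call (Csf2ra by 2 alternatives, Fgr and Rac2). The cause of these shifts was not tested. Values near or below the noise level limit 20 genes in control and 8 in mdx.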
